A study of Mus musculus with 12 samples.

Results

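The cytosolic ribosomal protein genes were followed in regulatory T cells, abbreviated Treg, from C57BL/6 mice that were 8 weeks old. The genes were chosen by symbol alone: Rpl, Rplp or Rps with a number and at most a short suffix, plus Rpsa, leaving out pseudogene symbols and the Rps6k kinases. This gave 84 of the 23337 symbols in the count files, 51 of the large and 33 of the small ribosomal subunit. Of these, 80 passed edgeR's filter on low counts (47 large, 33 small). Rpl10l and Rpl26 had no read in any of the 12 libraries, Rpl3l had 1 and Rpl39l 74, and these 4 were not tested. The rule leaves out Fau, Rpl36al and Gnb2l1 (Rack1), which also encode proteins of the ribosome and are given separately.

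RNA was sequenced from 4 groups of 3 libraries. Induced Treg (iTreg) came from a culture of CD4 T cells in which IL-2 and TGF-beta were given over 5 days, and the GFP-positive cells were kept. Natural Treg (nTreg) were taken directly from spleen and lymph nodes by a sort for CD4 and GFP. In both, the label KO stands for Hrd1 flox/flox with FoxP3-cre+-GFP, and the label WT for Hrd1 +/flox with the same FoxP3-cre+-GFP. All 4 groups thus carry at least a floxed allele of Hrd1, a ubiquitin ligase of the endoplasmic reticulum whose symbol is Syvn1, and all carry the Cre that the Foxp3 locus drives. Whether the replicates are different mice is not stated, and the p-values describe only how these libraries vary.

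A ribosome is built from ribosomal RNA and one copy of most ribosomal proteins, and T cells that leave rest to grow and divide build many more ribosomes. In mammals the mRNAs of ribosomal proteins start with a run of pyrimidines, the TOP motif, through which the kinase mTOR and the RNA-binding protein Larp1 control their translation. Myc raises the transcription of ribosomal protein genes and of the factors that assemble ribosomes.

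Totals ranged from 6763458 to 15462894 reads per library. Syvn1 was at 54.6, 73.1 and 63.1 CPM (counts scaled to a common library total) in iTreg KO, against 61.6, 72.2 and 101 in iTreg WT, and at 146, 137 and 129.7 CPM in nTreg KO, against 73.7, 87.2 and 75.5 in nTreg WT. The nTreg values go against the label, and the floxed exons are not given in the sources used here, so KO and WT mean the labels throughout. All 8 markers listed for Treg were detected in every library, with a summed level of 4240 to 5528 CPM. The list includes Cd4, Cd3d and Cd3e, which mark T cells in general. Ikzf2, a marker of natural Treg, was at 21.2 to 33.8 CPM in iTreg and 798 to 1281 CPM in nTreg. Xist reads stood out in iTreg WT replicate 2 (2035 CPM) and in nTreg KO and WT replicate 3 (486 and 723 CPM), and fits without these 3 libraries are given where a call, or a median by over 1.5 times, changed. The Y-linked gene Ddx3y was at 0 CPM in iTreg WT replicate 2 and at 77.4 to 264 CPM in the others. In nTreg KO and WT replicate 3 it was at 142 and 102 CPM.

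The promoters of 6 genes are shown because they bracket what follows: the pair Rps27l and Rps27, which moved in opposite directions between iTreg and nTreg in WT libraries, Rpl15 and Rpl38, which carry the TOP-type motif beside the start, and Rps26 and Rpl41, which were higher in iTreg and carry neither motif in the window shown. Each is the window of 40 bases before and 40 bases from the annotated transcription start, 5′ to 3′ on the gene's strand, from RefSeq on GRCm38.p6. Capitals mark CTTTCC on the gene's strand (a TOP-type run) and CCGGAAG on either strand (the core of ETS-family sites); the 2 motifs can overlap at their ends. For Rps27l it is the first of 2 annotated starts.
Rps27l (chr9:66946046-66946125, plus strand): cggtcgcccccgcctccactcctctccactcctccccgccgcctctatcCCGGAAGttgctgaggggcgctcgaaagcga
Rps27 (chr3:90213609-90213688, minus strand): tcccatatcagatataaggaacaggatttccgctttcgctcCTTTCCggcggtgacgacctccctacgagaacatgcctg
Rpl15 (chr14:18270947-18271026, minus strand): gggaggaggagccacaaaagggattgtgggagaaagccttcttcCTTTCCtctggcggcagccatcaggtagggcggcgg
Rpl38 (chr11:114668540-114668619, plus strand): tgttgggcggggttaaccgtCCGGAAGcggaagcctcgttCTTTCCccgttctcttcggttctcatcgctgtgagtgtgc
Rps26 (chr10:128626467-128626546, minus strand): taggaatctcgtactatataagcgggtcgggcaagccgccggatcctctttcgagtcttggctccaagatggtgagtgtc
Rpl41 (chr10:128549129-128549208, minus strand): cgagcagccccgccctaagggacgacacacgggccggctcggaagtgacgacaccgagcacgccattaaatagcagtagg

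RefSeq promoters were found for 62 of the 84 genes. From 30 bases before to 50 after the start, CTTTCC on the gene's strand stood in 18 of them (29%), against 4.36% of all 27025 mouse promoters in the table. It stood in 15 of 39 large subunit promoters (38.5%) and 3 of 23 small subunit promoters (13%). A start on C followed by 4 pyrimidines was annotated for 13 of 62 (21%), against 3.01% of all promoters. CCGGAAG, on either strand from 250 bases before to 50 after the start, was found in 25 (40.3%, against 9.93%), and AAGATGG, the core of YY1 sites, on either strand in the same window, in 10 (16.1%, against 7.28%). TATAAA on the gene's strand in the 50 bases before the start was found in 1 (1.61%, against 3.15%). These are matches of letters and describe the family, not the libraries.

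Together the members took 3.68 ± 0.399% of all reads in iTreg KO, 3.08 ± 0.157% in iTreg WT, 2.70 ± 0.378% in nTreg KO and 2.15 ± 0.254% in nTreg WT (SD, n = 3 libraries each). The large subunit genes summed to 20543, 23964 and 19347 CPM in iTreg KO, against 18237, 16984 and 17798 CPM in iTreg WT. In nTreg they summed to 16771, 13835 and 13328 CPM in KO, against 13296, 11322.5 and 10909.9 CPM in WT. For both cell types the 3 KO sums lay above the 3 WT sums, in nTreg by a margin of 13328 over 13296 CPM. With RLE size factors that margin closes, at 13260 CPM for nTreg KO replicate 3 and 13625 for nTreg WT replicate 1.

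The small subunit genes summed to 15649, 17962 and 14129 CPM in iTreg KO, against 14017, 12857 and 12812 CPM in iTreg WT, and to 14279.6, 11482 and 10273 CPM in nTreg KO, against 10942, 9661 and 8508 CPM in nTreg WT. The iTreg groups did not overlap on this scale, but as a share of raw reads iTreg KO replicate 3 (1.40%) lay below iTreg WT replicate 1 (1.42%). The nTreg groups overlapped. All 6 iTreg sums exceeded the WT sums of nTreg for both subunits, while nTreg KO replicate 1 lay above all 3 iTreg WT libraries for the small subunit and below them for the large. The ratio of large to small sums was 1.31, 1.33 and 1.37 in iTreg KO, 1.30, 1.32 and 1.39 in iTreg WT, 1.17, 1.20 and 1.30 in nTreg KO, and 1.22, 1.17 and 1.28 in nTreg WT.

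**Figure D1:**
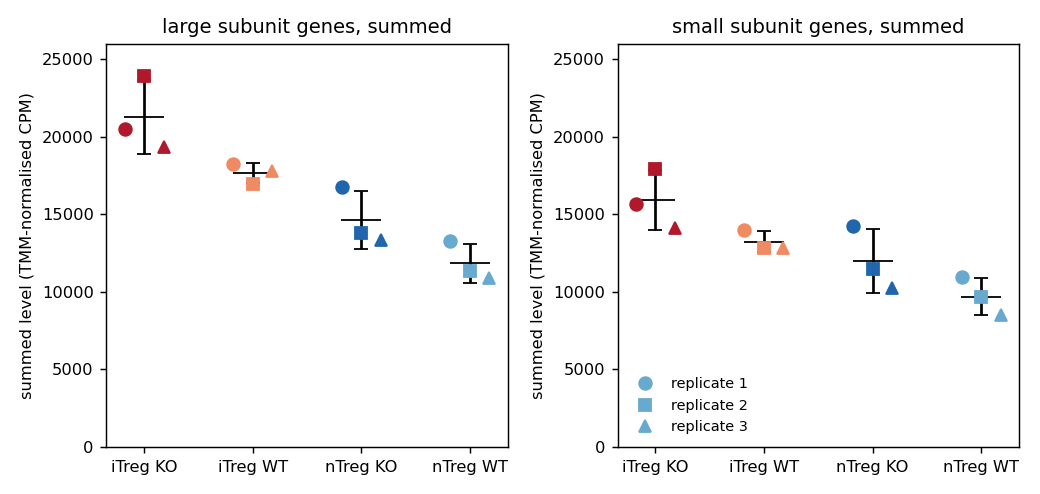
Summed level of the tested large subunit genes (left panel) and small subunit genes (right panel) in TMM-normalised CPM for each library; symbols mark replicate numbers, and the bars are mean and SD of 3 libraries. The large subunit sums lie between 19347 and 23964 in iTreg KO, 16984 and 18237 in iTreg WT, 13328 and 16771 in nTreg KO, and 10909.9 and 13296 in nTreg WT.

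Although the proteins are needed in near equal number, the counts spread over 3 orders of magnitude. Per kilobase of mRNA, the mean level over the 4 groups reached 3157 CPM for Rplp1 (acidic stalk protein), 2147 for Rpl8, 1980 for Rpl4 and 1888 for Rpl32. Rps27, Rpl11, Rps29, Rpl34, Rpl24, Rpl36a and Rpl30, all core proteins, were at 7.80, 5.17, 4.54, 4.32, 3.57, 3.45 and 0.911 CPM per kilobase, and Rpl26, also a core protein, had no read. The median was 129 CPM per kilobase for the large and 241 for the small subunit genes; 45 of 80 were at 100 or more and 15 under 10.

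Ribosomal protein genes have many processed pseudogene copies, so the share of 50-base stretches of each mRNA that occurs in no other annotated gene was counted. It had a median of 47.6% over the 84 genes, with a lowest value of 1.35% for Rps27 and values of 100% that included Rpl3l and Rpl39l; 44 genes were under 50%. Across the 82 genes with reads, this share and the log2 level had Pearson's r = 0.145 and Spearman's rho = 0.257; genes share their libraries, so this is a description. Rpl39l, at 100%, had 74 reads in all. How the authors' counting treated reads that fit several places is not given in the sources used here, so the levels of single members are uncertain, and differences between libraries compare like with like only as far as copies behave alike.

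In nTreg, the KO label went with higher values across both subunits, but no member passed the test, beside 2.18% of all 12038 tested genes that passed as higher and 0.341% as lower. The log2 fold change was above 0 for 41 of 47 large and 29 of 33 small subunit genes, with medians of 0.25 and 0.28 (1.19 and 1.21-fold), against a median of 0.0095 over all tested genes. At an unadjusted p under 0.05 there were 12 large (25.5%) and 9 small subunit genes (27.3%), all higher, against 8.6% of all tested genes higher and 4.78% lower. DESeq2 called 0 large and 1 small subunit gene (Rps7), beside 2.86% of all genes higher and 1.26% lower. The 3 KO libraries lay above the 3 WT libraries for 7 large (14.9%) and 6 small subunit genes (18.2%), against 15.7% of all tested genes, which is near the background, and below them for none, against 14.1%. Replicate numbers pair KO and WT libraries within a cell type, and with the number as a block 8 large (17%) and 7 small subunit genes (21.2%) were higher at an adjusted p under 0.05 and none was lower, against 5.36% of all tested genes higher and 3.64% lower in that fit.

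Rpl10 (chromosome X, 74270812 to 74273135, plus strand, GRCm38; a protein-coding gene), whose protein sits near the peptidyl transferase centre, had the smallest p of the large subunit. It was at 47.5, 35.98 and 26.9 CPM in nTreg KO, against 28.8, 18.97 and 14.4 in nTreg WT. KO replicate 3 lay below WT replicate 1, so the groups overlapped, although each KO library exceeded the WT library of its number (edgeR, log2 fold change 0.84, SE 0.25, adjusted p = 0.14; 0.0021 with the block). Rpl4, a protein that lines the exit tunnel, was at 2988, 2576 and 2847 CPM in KO, against 2478, 1977 and 2186 in WT, with no overlap (edgeR, log2 fold change 0.34, SE 0.10, adjusted p = 0.15; 0.018 with the block).

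In the small subunit, Rps7 came closest to the threshold, at 34.995, 30.3 and 30.1 CPM in nTreg KO, against 25.1, 22.2 and 19.4 in nTreg WT, all KO libraries above all WT libraries (edgeR, log2 fold change 0.52, SE 0.13, adjusted p = 0.073; 0.016 with the block). Rps20, a protein of the head of the subunit, was at 449, 398 and 362 CPM in KO, against 316, 302 and 272 in WT (edgeR, log2 fold change 0.44, SE 0.13, adjusted p = 0.12; 0.021 with the block). Rps26, at the mRNA exit channel, was at 328, 309 and 278 CPM in KO, against 241, 209 and 233 in WT (edgeR, log2 fold change 0.42, SE 0.13, adjusted p = 0.16; 0.037 with the block). For both, the 3 KO libraries lay above the 3 WT libraries. Other genes that passed with the block included Rpl32, Rpl36, Rplp0, Rplp1, Rplp2, Rps21 and Rps3, with adjusted p between 0.011 and 0.047.

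In each numbered pair of nTreg libraries most members had the larger value in KO: 39 of 47 large and 30 of 33 small in pair 1, 38 and 27 in pair 2, and 39 and 29 in pair 3, against 49.6%, 51.2% and 49.8% of all tested genes. The median log2 difference of the pairs was 0.28, 0.16 and 0.22 for the large and 0.38, 0.19 and 0.26 for the small subunit. The size leans on KO replicate 1: without it the medians were 0.11 (large) and 0.13 (small), against 0.25 and 0.28 with all libraries. Without nTreg KO replicate 3 the small subunit median was 0.42. Without the 3 libraries with Xist reads they were 0.22 and 0.28. Summed B cell markers were at 16.6 to 17.5 CPM in nTreg KO and 27.8 to 33.7 CPM in nTreg WT, and summed myeloid markers at 33.5, 300.7 and 58.8 CPM in nTreg KO and 37.0, 137 and 58.2 CPM in nTreg WT. Their part in the result was not tested, nor can fewer cells of a type be told apart from less RNA per cell in such bulk samples.

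In iTreg, the KO label likewise went with higher values in both subunits, and again no member passed the test, beside 0.166% of all tested genes that passed as higher and 0.0166% as lower. The log2 fold change was above 0 for 46 of 47 large and 33 of 33 small subunit genes, with medians of 0.27 and 0.27 (1.20 and 1.21-fold), against −0.013 over all tested genes. At an unadjusted p under 0.05 there were 11 large (23.4%) and 7 small subunit genes (21.2%), all higher, against 3.83% of all tested genes higher and 3.73% lower. DESeq2 called 0 and 0, beside 0.615% of all genes higher and 0.208% lower. The KO libraries lay above the WT libraries for 24 large (51.1%) and 12 small subunit genes (36.4%), against 4.68% of all tested genes, and below them for none, against 4.95%. With RLE size factors these were 22 and 11 genes, and with raw totals 22 and 10. Members move together from library to library, so these counts are not independent of each other.

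Rpl12, of the base of the stalk, was at 27.1, 32.8 and 28.6 CPM in iTreg KO, against 20.6, 17.2 and 24.8 in iTreg WT (edgeR, log2 fold change 0.50, SE 0.17, adjusted p = 0.49). Rpl17, which lies at the tunnel exit, was at 20.2, 21.1 and 18.8 CPM in KO, against 14.9, 13.2 and 16.4 in WT (edgeR, log2 fold change 0.44, SE 0.16, adjusted p = 0.53). For both genes the KO libraries all lay above the WT libraries.

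Of the small subunit, Rps20 was at 641, 796 and 589 CPM in iTreg KO, against 540.1, 482 and 493 in iTreg WT (edgeR, log2 fold change 0.42, SE 0.13, adjusted p = 0.39). Rps26 was at 549, 669.6 and 448 CPM in KO, against 446, 424 and 418 in WT (edgeR, log2 fold change 0.37, SE 0.13, adjusted p = 0.51). In both genes the groups did not overlap and KO replicate 2 was highest. With the replicate block, 1 of the 80 members passed (1.25%), against 0.673% of all tested genes higher and 0.274% lower in that fit, which is near the background. It was Rpl10, at 24.4, 23.7 and 24.6 CPM in iTreg KO, against 13.4, 15.3 and 18.9 in iTreg WT (edgeR, log2 fold change 0.62, adjusted p = 0.049 with the block).

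By numbered pair, KO had the larger value for 43 large and 30 small subunit genes in pair 1, 45 and 31 in pair 2, and 39 and 30 in pair 3, against 47.5%, 46.7% and 47.5% of all tested genes. Pair 2 had the largest median log2 difference, 0.50 (large) and 0.52 (small), against 0.19 and 0.18 in pair 1 and 0.13 and 0.13 in pair 3. Without iTreg KO replicate 2 the medians over the members were 0.15 and 0.16. That library also had the lowest Foxp3 level of all 12, at 392, 191 and 375 CPM for the 3 iTreg KO libraries and 377, 306 and 393 for iTreg WT. Pair 2 also holds the iTreg WT library with Xist reads; without the 3 such libraries the medians were 0.24 and 0.25. In that pair Xist was at 2035 and Ddx3y at 0 CPM in WT, against 0 and 77.4 CPM in KO. The part of this difference in the result was not tested.

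Whether the KO effect differed between the cell types, taken as iTreg minus nTreg, was tested directly. No member passed, beside 0.0166% of tested genes that passed as higher and 0.274% as lower, and the medians were 0.0074 (large) and 0.0034 (small). In simulated data this test recovered 1.49%, 32.8% and 74.2% of 1.5, 2 and 4-fold changes. The lack of calls therefore does not show that the effects were equal. Rpl17 had the smallest p of the large subunit and was the only member with an unadjusted p under 0.05, against 1.99% of all tested genes higher and 5.46% lower. It was at 23.3, 19.2 and 16.4 CPM in nTreg KO, against 22.2, 23.9 and 18.3 in nTreg WT, where the groups overlapped, and its effects differed by 0.56 (edgeR, SE 0.23, adjusted p = 0.59). The next were Rpl28 (1.09, adjusted p = 0.74) and Rpl36 (−0.35, adjusted p = 0.91), and in the small subunit Rps7 (−0.31, 0.82), Rps29 (0.69, 0.93) and Rps27l (−0.35, 0.94), all from edgeR. Rpl28 and Rps29 were at under 6 CPM in every library. Leaving out 1 library moved the median difference between −0.077 and 0.13 for the large and between −0.11 and 0.14 for the small subunit. DESeq2 and the replicate block also gave 0, beside 0.233% of all genes higher and 0.93% lower in DESeq2 and 0.341% and 1.46% with the block.

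**Figure D2:**
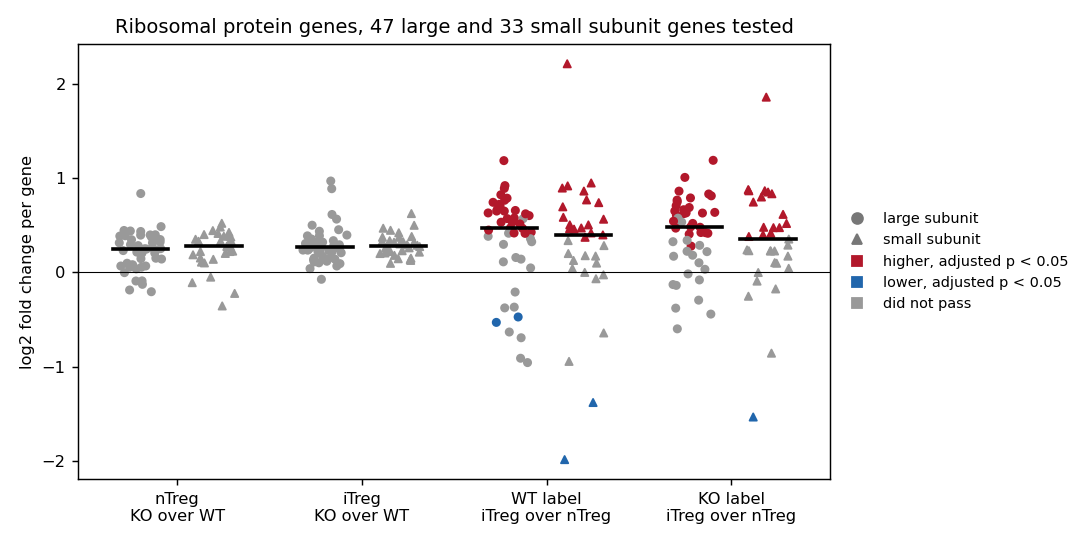
Log2 fold change of each tested member (47 large subunit genes as circles, 33 small subunit genes as triangles) in the 4 comparisons, with the median as a bar; red and blue mark genes higher or lower at an adjusted p under 0.05 (edgeR). Both KO comparisons sit around 0.25 to 0.28 with no gene coloured, while in iTreg against nTreg most genes are higher and Rps27l, at 2.21 and 1.86, and Rps13, at −1.99 and −1.54, lie far from the rest.

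Between cell types the members differed more. In WT libraries 28 large and 18 small subunit genes were higher in iTreg than in nTreg and 2 and 2 were lower, that is 59.6% and 54.5% higher and 4.26% and 6.06% lower, against 34.8% of all tested genes higher and 30.4% lower. The median log2 fold change was 0.47 for the large and 0.40 for the small subunit (1.38 and 1.32-fold), against 0.049 over all genes. In KO libraries 27 large and 16 small subunit genes were higher and 0 and 1 lower (57.4% and 48.5%, and 0% and 3.03%), against 32.1% and 29.8% of all genes, with medians of 0.48 and 0.35, against 0.0089. The small subunit median in KO libraries was 0.20 without nTreg KO replicate 3, 0.54 without nTreg KO replicate 1 and 0.19 without the 3 libraries with Xist reads. The iTreg libraries lay above the nTreg libraries of the same label for 29 large and 19 small subunit genes in WT (37.4% of all tested genes did) and 28 and 14 in KO (34.1%), and below them for 4 and 3 in WT (33.9%) and 1 and 2 in KO (32.8%). Without the 3 libraries with Xist reads, 17 large (36.2%) and 11 small subunit genes (33.3%) were higher in iTreg WT and 2 and 2 lower, against 26.4% of all genes higher and 22.2% lower in that fit. In KO libraries 19 large (40.4%) and 10 small (30.3%) were then higher and 2 and 2 lower, against 26.4% and 25.3%. Without both nTreg libraries numbered 2, nTreg KO replicate 2 being the one richest in myeloid markers, 10 small subunit genes were higher (30.3%) and 1 lower (3.03%) in KO, against 26.8% and 24.8% of all genes, so the share higher was near the background. The WT and KO comparisons share no library. They come from the same fit, and KO and WT libraries of the same number vary together, so they are not independent. The cell types also differ in how cells were obtained, in culture and in a sort from tissue, and this cannot be told apart from the cell type.

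Among large subunit genes the smallest p belonged to Rpl7 in KO libraries and in WT libraries to Rpl7l1, a paralogue of Rpl7 that in yeast acts in ribosome assembly. Rpl7l1 was at 120.4, 143 and 161 CPM in iTreg WT, against 80.9, 83.5 and 85.6 in nTreg WT (edgeR, log2 fold change 0.76, SE 0.11, adjusted p = 5.1e-05), and at 149.9, 149.99 and 153 CPM in iTreg KO, against 91.3, 87.5 and 98.6 in nTreg KO (edgeR, log2 fold change 0.71, SE 0.10, adjusted p = 0.00011). Rpl7 itself was at 948, 888 and 890.3 CPM in iTreg WT, against 641, 533 and 545 in nTreg WT (edgeR, log2 fold change 0.67, SE 0.10, adjusted p = 0.00012), and at 1006, 1059 and 994 CPM in iTreg KO, against 663, 562 and 574 in nTreg KO (edgeR, log2 fold change 0.77, SE 0.10, adjusted p = 4.8e-05). Both paralogues were higher in every iTreg library than in any nTreg library.

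Rpl6 was at 281, 271 and 283 CPM in iTreg WT, against 183, 159 and 157 in nTreg WT (edgeR, log2 fold change 0.74, SE 0.11, adjusted p = 8.0e-05; in KO libraries 0.75 and 8.9e-05). Rpl14 was at 381, 369.7 and 380.2 CPM in iTreg WT, against 216, 201 and 181 in nTreg WT (edgeR, log2 fold change 0.92, SE 0.14, adjusted p = 0.00013; in KO libraries 1.01 and 7.3e-05). Rpl41, the shortest ribosomal protein, was at 588, 565 and 555 CPM in iTreg WT, against 291, 231 and 229 in nTreg WT, 2.27-fold higher (edgeR, log2 fold change 1.18, SE 0.20, adjusted p = 0.00027). For these 3 genes no iTreg library fell into the range of nTreg. Rpl27a was among the 5 of smallest p in KO libraries, at 57.1, 61.2 and 61.7 CPM in iTreg KO, against 39.9, 32.4 and 32.05 in nTreg KO (edgeR, log2 fold change 0.79, SE 0.12, adjusted p = 0.00014).

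Of the large subunit, 2 genes were lower in iTreg WT than in nTreg WT. Rpl17 was at 14.9, 13.2 and 16.4 CPM in iTreg WT, against 22.2, 23.9 and 18.3 in nTreg WT (edgeR, log2 fold change −0.53, SE 0.16, adjusted p = 0.012). Rpl12 was at 20.6, 17.2 and 24.8 CPM in iTreg WT, against 32.1, 29.3 and 25.9 in nTreg WT (edgeR, log2 fold change −0.47, SE 0.17, adjusted p = 0.030). In neither gene did the groups overlap, but both calls ended when single libraries were left out, with an adjusted p of up to 0.054 for Rpl17 (without iTreg WT replicate 2 or nTreg WT replicate 2) and 0.12 for Rpl12 (without iTreg WT replicate 1 or 2 or nTreg WT replicate 1 or 2; 0.063 without the 3 libraries with Xist reads). Rpl12 shares 56 bases with Lrsam1 on the opposite strand, and whether counting used strand is not given in the sources used here.

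In the small subunit the gene that stood farthest out was Rps27l (chromosome 9, 66946086 to 66949516, plus strand, GRCm38; protein-coding), a paralogue of Rps27 that is a target of p53 in human cells. It was at 58.8, 82.1 and 78.8 CPM in iTreg WT, against 14.6, 20.5 and 12.6 in nTreg WT, 4.63-fold higher (edgeR, log2 fold change 2.21, SE 0.24, adjusted p = 7.6e-06). It was at 70.9, 102 and 66.98 CPM in iTreg KO, against 22.8, 26.2 and 16.7 in nTreg KO, 3.62-fold higher (edgeR, log2 fold change 1.86, SE 0.23, adjusted p = 2.8e-05). The lowest of the 6 iTreg libraries was at 58.8 CPM and the highest of the 6 nTreg libraries at 26.2 CPM.

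Rps27 itself (chromosome 3, 90212522 to 90213651, minus strand) was at 1.43, 0.979 and 1.63 CPM in iTreg WT, against 5.32, 3.40 and 1.95 in nTreg WT, with no overlap (edgeR, log2 fold change −1.38, SE 0.45, adjusted p = 0.017). It was at 2.09, 2.22 and 1.91 CPM in iTreg KO, against 6.03, 2.96 and 2.37 in nTreg KO, where the test was not passed (edgeR, log2 fold change −0.86, SE 0.44, adjusted p = 0.10). These are 13 to 52 reads per library, only 1.35% of its 50-base stretches occur in no other annotated gene, and without iTreg WT replicate 2 or nTreg WT replicate 1 the WT call ended, with an adjusted p of up to 0.096. Without the 3 libraries with Xist reads Rps27 passed in KO libraries too (log2 fold change −1.10, adjusted p = 0.049, edgeR). Rps27l rests on 99 to 1090 reads per library.

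Rps13 (chromosome 7, 116331505 to 116334195, minus strand, GRCm38; protein-coding), which binds the central domain of the small subunit RNA, was the other gene that stood apart. It was at 3.83, 3.77 and 2.71 CPM in iTreg WT, against 18.2, 14.01 and 9.12 in nTreg WT (edgeR, log2 fold change −1.99, SE 0.35, adjusted p = 0.00031). It was at 3.03, 3.59 and 4.37 CPM in iTreg KO, against 15.6, 10.02 and 6.47 in nTreg KO (edgeR, log2 fold change −1.54, SE 0.34, adjusted p = 0.0021). All 6 iTreg libraries lay below all 6 nTreg libraries, on 29 to 159 reads per library. The gene spans the small nucleolar RNA gene Snord14a on the same strand, with 87 bases shared between them.

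Rps26, Rps20, Rps2 and Rps18 were named for their small p and lie above the medians of the subunit. Rps26 was at 446, 424 and 418 CPM in iTreg WT, against 241, 209 and 233 in nTreg WT (edgeR, log2 fold change 0.92, SE 0.13, adjusted p = 8.5e-05; in KO libraries 0.86 and 0.00015). Rps20 was higher in iTreg by 0.77 in WT and 0.74 in KO libraries (log2; adjusted p = 0.00022 and 0.00031, edgeR). Rps2, a protein of the decoding site region, was at 425, 457 and 457 CPM in iTreg WT, against 266, 208 and 219.97 in nTreg WT (edgeR, log2 fold change 0.95, SE 0.16, adjusted p = 0.00030). Rps18 was at 381, 441 and 368 CPM in iTreg KO, against 269, 225 and 191 in nTreg KO (edgeR, log2 fold change 0.80, SE 0.14, adjusted p = 0.00034). None of these 4 overlapped between the cell types compared.

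**Figure D3:**
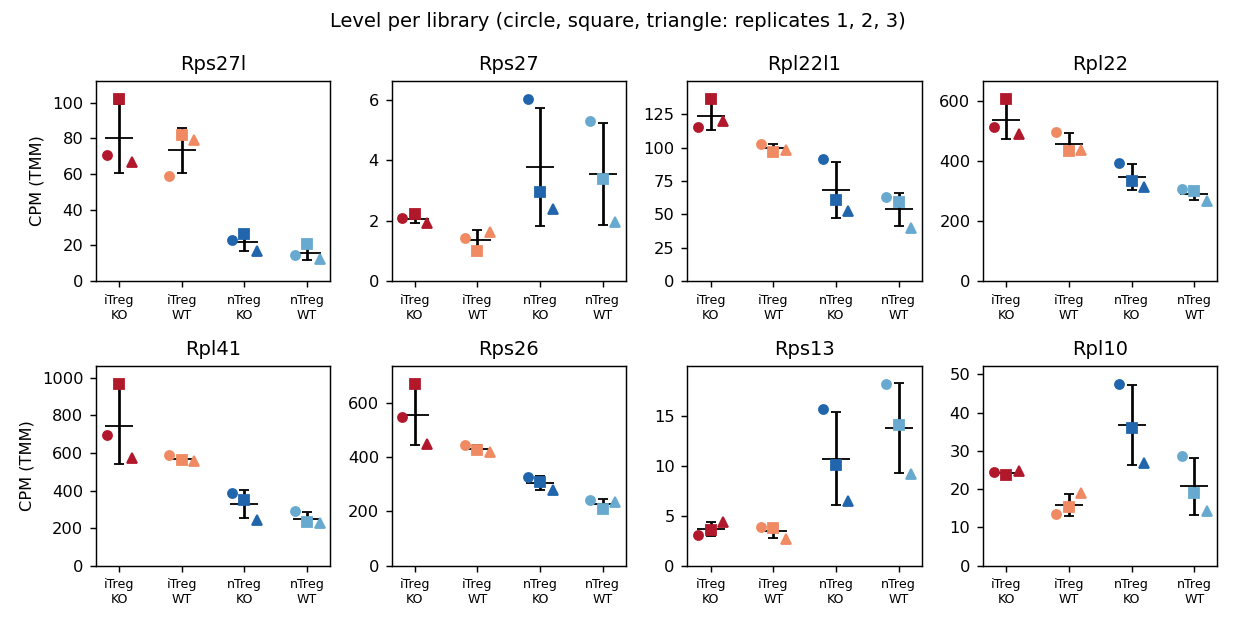
Level of 8 members in each library in TMM-normalised CPM (linear axes from 0), with mean and SD of 3 libraries per group. Rps27l lies at 58.8 CPM or more in every iTreg library and at 26.2 or less in every nTreg library, while Rps13 shows the reverse order and each KO library exceeds the WT library of its number for Rpl10 in both cell types.

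The paralogue pairs come next. Rpl22, and Rpl22l1, which can take its place in the ribosome, were both higher in iTreg. Rpl22 was at 499, 435 and 436 CPM in iTreg WT, against 308, 299.7 and 266 in nTreg WT (edgeR, log2 fold change 0.65, SE 0.12, adjusted p = 0.00052; in KO libraries 0.63 and 0.00074). Rpl22l1 was at 103, 97.1 and 98.2 CPM in iTreg WT, against 62.8, 59.2 and 39.7 in nTreg WT (edgeR, log2 fold change 0.89, SE 0.20, adjusted p = 0.0021; in KO libraries 0.86 and 0.0027). Whether the 2 genes differ in their change was not tested.

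Rpl3, of the peptidyl transferase centre, was at 250.4, 258 and 263 CPM in iTreg WT, against 185, 154 and 153 in nTreg WT (edgeR, log2 fold change 0.65, SE 0.13, adjusted p = 0.00088; in KO libraries 0.63 and 0.0012), while its muscle paralogue Rpl3l had 1 read in all. Rpl39 was at 118, 97.1 and 96.8 CPM in iTreg WT, against 81.2, 83.1 and 64.5 in nTreg WT (edgeR, log2 fold change 0.45, SE 0.16, adjusted p = 0.030; in KO libraries 0.48 and 0.022), and its testis paralogue Rpl39l was at 1.54 CPM or less in every library. The Rpl39 call ended without iTreg WT replicate 1 or nTreg WT replicate 3 (adjusted p of up to 0.13), and in KO libraries without iTreg KO replicate 2 or nTreg KO replicate 2 or 3 (up to 0.096), and in both without the 3 libraries with Xist reads (0.13 in WT and 0.11 in KO).

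Rpl10 did not pass between the cell types, at 13.4, 15.3 and 18.9 CPM in iTreg WT, against 28.8, 18.97 and 14.4 in nTreg WT (edgeR, log2 fold change −0.38, SE 0.25, adjusted p = 0.21), and at 24.4, 23.7 and 24.6 CPM in iTreg KO, against 47.5, 35.98 and 26.9 in nTreg KO (edgeR, log2 fold change −0.60, SE 0.25, adjusted p = 0.052). Without nTreg KO replicate 3 it passed in KO libraries, at −0.78 (adjusted p = 0.021; 0.018 without the 3 libraries with Xist reads), and with all libraries it passed in DESeq2 (adjusted p = 0.037). Its testis paralogue Rpl10l had no read. Rps4x was at 736, 704 and 706 CPM in iTreg WT, against 579.7, 479.7 and 490.3 in nTreg WT (edgeR, log2 fold change 0.47, SE 0.12, adjusted p = 0.0034; in KO libraries 0.47 and 0.0035), and the WT call ended without the 3 libraries with Xist reads (adjusted p = 0.051). Rps4y2, which the annotation holds as Rps4l, a transcribed processed pseudogene on chromosome 6, was at 1.43 to 4.28 CPM and did not pass (log2 fold change −0.64 in WT and −0.094 in KO libraries, adjusted p = 0.17 and 0.85, edgeR).

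The stalk proteins recruit the translation factors that hydrolyse GTP. Rplp0, the stalk's base, was at 2433, 2274 and 2538 CPM in iTreg WT, against 1789, 1472 and 1454 in nTreg WT (edgeR, log2 fold change 0.62, SE 0.13, adjusted p = 0.0010), and at 2863, 3347 and 2829 CPM in iTreg KO, against 2414, 1936 and 1860.4 in nTreg KO (edgeR, log2 fold change 0.54, SE 0.13, adjusted p = 0.0027). Rplp1 was at 1744, 1589 and 1579 CPM in iTreg WT, against 1290.1, 1122 and 1031 in nTreg WT (edgeR, log2 fold change 0.51, SE 0.15, adjusted p = 0.0099; in KO libraries 0.41 and 0.030). Rplp2 was at 460.2, 432 and 391 CPM in iTreg WT, against 379.6, 303 and 279 in nTreg WT (edgeR, log2 fold change 0.42, SE 0.15, adjusted p = 0.028; in KO libraries 0.22 and 0.22). The Rplp2 call ended without any of 4 libraries (iTreg WT replicate 1 or 2, nTreg WT replicate 2 or 3; adjusted p of up to 0.12), and the Rplp1 call in KO libraries without any of 4 (up to 0.13). Without the 3 libraries with Xist reads the Rplp1 call ended in WT (adjusted p = 0.067) and KO libraries (0.17), and the Rplp2 call in WT libraries (0.20).

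Rpl5 and Rpl11, which with the 5S RNA bind and inhibit Mdm2, did not pass in either label. Rpl5 was at 18.7, 18.003 and 33.5 CPM in iTreg WT, against 21.7, 14.6 and 16.4 in nTreg WT (0.41, adjusted p = 0.21; in KO libraries 0.29 and 0.39; edgeR). Rpl11 was at 3.34 to 5.05 CPM in iTreg WT and 3.26 to 5.61 in nTreg WT (−0.21, adjusted p = 0.55; in KO libraries −0.14 and 0.70; edgeR). Mdm2 was at 104 to 136 CPM in iTreg WT and 136 to 138 in nTreg WT and did not pass (−0.23, adjusted p = 0.083, edgeR). For Rpl5 and Rpl11 the iTreg and nTreg ranges overlapped.

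Rpsa, which as a precursor form also serves as a laminin receptor, was at 579, 526 and 517 CPM in iTreg WT, against 324, 267 and 282 in nTreg WT (edgeR, log2 fold change 0.89, SE 0.16, adjusted p = 0.00033; in KO libraries 0.88 and 0.00044). Rps19, needed for maturation of the small subunit RNA and mutated in Diamond-Blackfan anaemia, was at 422, 364 and 376 CPM in iTreg WT, against 326, 296 and 221 in nTreg WT (edgeR, log2 fold change 0.46, SE 0.19, adjusted p = 0.046; in KO libraries 0.47 and 0.044), a call that ended when any of 5 libraries was left out (adjusted p of up to 0.19; in KO libraries any of 4, up to 0.17), and with RLE size factors (0.071; in KO libraries 0.052), and without the 3 libraries with Xist reads (0.16 in both). Rps6, the substrate of the S6 kinases, did not pass, at 20.8, 21.7 and 25.8 CPM in iTreg WT, against 22.3, 20.8 and 20.8 in nTreg WT (0.10, adjusted p = 0.55; in KO libraries 0.17 and 0.29; edgeR). Rps27a, made as a fusion with ubiquitin, did not pass either, at 9.001, 10.4 and 8.31 CPM in iTreg WT, against 9.75, 8.92 and 6.89 in nTreg WT (0.12, adjusted p = 0.63; in KO libraries 0.35 and 0.17; edgeR).

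In KO against WT none of these members with known roles passed in the main fit. With the block, Rplp1 (adjusted p = 0.029, edgeR) and Rplp2 (0.011) passed in nTreg, and Rpl10 passed in nTreg (0.0021) and iTreg (0.049). Rpsa was at 536 to 817 CPM in iTreg KO and 517 to 579 in iTreg WT, and at 321 to 430.5 CPM in nTreg KO and 267 to 324 in nTreg WT. Rps6 was at 24.01 to 31.6 CPM in iTreg KO and 20.8 to 25.8 in iTreg WT, and at 23.2 to 24.9 CPM in nTreg KO and 20.8 to 22.3 in nTreg WT, where the ranges did not overlap. Rplp0 was at 2829 to 3347 CPM in iTreg KO and 2274 to 2538 in iTreg WT, and at 1860.4 to 2414 CPM in nTreg KO and 1454 to 1789 in nTreg WT (edgeR, unadjusted p = 0.027 in iTreg and 0.0084 in nTreg; with the block Rplp0 passed in nTreg, adjusted p = 0.016). Rpl5 and Rpl11 overlapped between KO and WT in both cell types, with log2 fold changes of −0.075 and 0.066 in iTreg and 0.054 and −0.0041 in nTreg.

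The difference between cell types went with the level of the gene. Of the 65 members at 10 CPM per kilobase or more, 46 were higher and 3 lower in iTreg WT than in nTreg WT. Of the 15 under 10, none was higher and 1 was lower (Rps27). Of all tested genes, whatever their level, 34.8% were higher and 30.4% lower. Members under 10 mostly rest on fewer reads and pass less readily, so the calls in the 2 classes cannot be compared directly. The medians were 0.50 at 10 or more and −0.21 under 10. In KO libraries the medians were 0.47 and 0.18. The division at 10 was chosen after the values were seen. Across the 80 members, log2 level and log2 fold change had r = 0.542 and rho = 0.491 in WT and r = 0.41 and rho = 0.39 in KO libraries; the levels come from the same libraries, so this is a description. Divided instead at 50% of 50-base stretches found in no other gene, the medians in WT libraries were 0.42 (37 genes at or over) and 0.46 (43 genes under). For the KO label, members at 10 CPM per kilobase or more and under 10 had medians of 0.27 and 0.38 in iTreg, and 0.28 and 0.054 in nTreg.

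**Figure D4:**
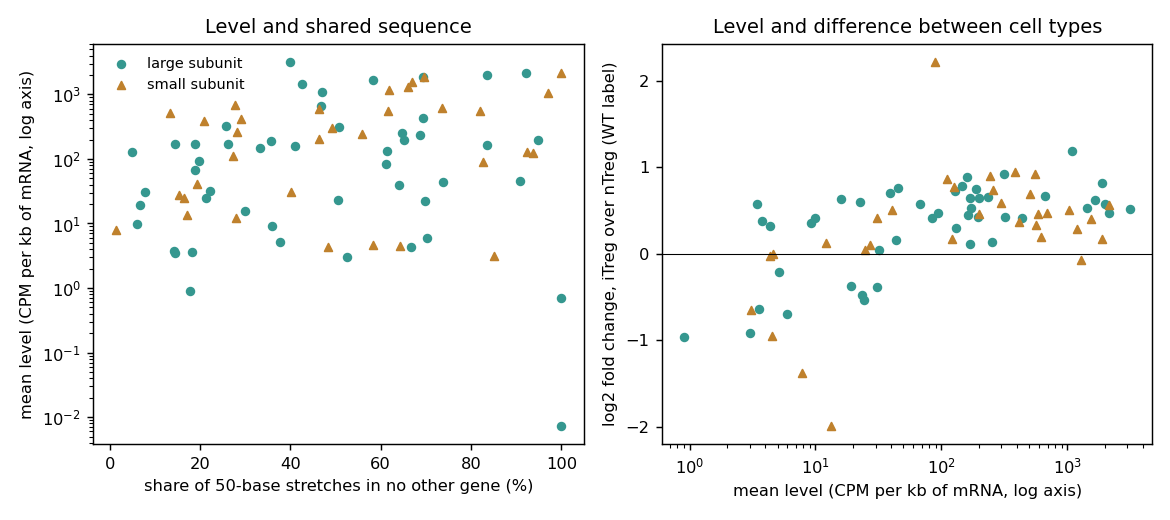
Left, mean level of each member with reads (CPM per kilobase of mRNA, log axis) against the share of its 50-base stretches found in no other annotated gene; right, log2 fold change of iTreg over nTreg in WT libraries against the same level for the 80 tested members. On the left genes of every share span low and high levels (rho = 0.257), and on the right the genes below 0 lie mostly at low levels (rho = 0.491).

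Cell type markers moved with the cell types. Of the 8 markers listed for Treg 1, Il2ra, was higher (12.5%) and 6 were lower (75%) in iTreg WT than in nTreg WT. Of all tested genes 34.8% were higher and 30.4% lower. The list includes the general T cell genes Cd4, Cd3d and Cd3e. Summed plasma cell markers were at 3.75 to 5.90 CPM in iTreg and 33.2 to 61.2 CPM in nTreg, B cell markers at 0.518 to 3.03 and 16.6 to 33.7 CPM, myeloid markers at 4.18 to 6.21 and 33.5 to 300.7 CPM, and NK cell markers at 79.9 to 152 and 21.4 to 33.6 CPM. The nTreg plasma cell sum was mostly Prdm1, at 26.7 to 41.9 CPM, against 1.46 to 4.24 in iTreg. Igj of the same list was at 27.9 CPM in nTreg WT replicate 1 and 16.7 in nTreg KO replicate 1. It was at 0.841 to 1.38 CPM in the other nTreg libraries and at 0.618 or less in iTreg. Sdc1 of that list went the other way, at 1.42 to 2.96 CPM in iTreg and 0.142 to 0.813 in nTreg. Of the 3 tested genes of the NK cell list, 2 (66.7%) passed as higher in iTreg WT and 1 (33.3%), Klrb1c, as lower, beside the same all-gene shares. Klrb1c was at 0.0882 CPM or less in iTreg and 2.33 to 5.12 in nTreg. The sums thus do not measure the share of these cells. Erythroid markers were at 0 in iTreg and at 3.62 CPM or less in nTreg. Their part in the results on ribosomal protein genes was not tested.

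Further genes of the ribosome lie outside the symbol rule. Rpl36al, a paralogue of Rpl36a, passed in nTreg: it was at 82.3, 66.9 and 73.9 CPM in nTreg KO, against 41.2, 36.9 and 34.99 in nTreg WT, 1.97-fold higher with no overlap (edgeR, log2 fold change 0.98, SE 0.12, adjusted p = 0.00064). The call held when any 1 library was left out (adjusted p of up to 0.0073) and ended without the 3 libraries with Xist reads (0.056). In iTreg it was at 77.03, 89.6 and 67.3 CPM in KO, against 59.3, 60.3 and 60.001 in WT, again with no overlap but without passing. It shares 332 bases with Gm49383, a protein-coding gene on the same strand, and reads from the shared bases cannot be assigned to either.

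Gnb2l1 was higher in iTreg than in nTreg, by 0.59 in WT and 0.48 in KO libraries (log2; adjusted p = 0.00058 and 0.0027, edgeR). Fau, the source of Rps30, was at 3.89 CPM or less in iTreg WT and 3.82 or less in nTreg WT and did not pass.

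Genes that work with the ribosome were counted in lists. Of 16 elongation factor and other TOP mRNAs, 13 were higher and none lower in iTreg WT than in nTreg WT (median 0.61), among them Eif5a (1.41), Nap1l1 (1.32) and Pabpc4 (1.12); in KO libraries 13 were higher and 1 lower. Of 104 ribosome biogenesis factors, 61 were higher and 3 lower in WT libraries (median 0.42), led by Nhp2 (1.65), Npm1 (1.32) and Gar1 (1.23), and 65 were higher and 2 lower in KO libraries. Of 15 RNA polymerase I genes, 7 were higher and 3 lower in WT libraries, such as Cd3eap (1.60), Polr1d (0.73) and Taf1c (−1.20), and 8 were higher and 3 lower in KO libraries. All values are log2 fold changes that passed edgeR's test, and the all-gene background was 34.8% higher and 30.4% lower in WT and 32.1% and 29.8% in KO libraries.

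Myc was at 494, 511 and 425 CPM in iTreg WT, against 204, 205 and 206 in nTreg WT, 2.33-fold higher (edgeR, log2 fold change 1.22, SE 0.14, adjusted p = 1.0e-05), and at 604, 463 and 451 CPM in iTreg KO, against 318, 242 and 268 in nTreg KO (edgeR, log2 fold change 0.87, SE 0.14, adjusted p = 0.00015). Between labels its ranges in iTreg overlapped, and in nTreg the 3 KO libraries lay above the 3 WT libraries without passing the test. Larp1 was higher in iTreg WT than in nTreg WT by 0.51 (adjusted p = 0.010, edgeR), and Mtor, at 83.8 to 94.1 CPM in iTreg WT and 84.6 to 91.9 in nTreg WT, did not pass (0.0078, adjusted p = 0.95, edgeR). Eif4ebp1, an inhibitor of cap-dependent translation and a target of mTOR, had the largest value of the 10 regulators (3.08 in WT libraries, edgeR). Of these 10, 4 were higher (40%) and 1 was lower (10%) in both labels. Of all tested genes 34.8% were higher and 30.4% lower in WT, and 32.1% and 29.8% in KO libraries. The share of regulators that was higher was thus near the background.

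In KO against WT few genes of the lists passed. In nTreg, 1 of the 16 TOP mRNAs passed, Tpt1 (6.25%, against 2.18% of all tested genes higher and 0.341% lower). Tpt1, a growth-related protein, was at 259, 274 and 233 CPM in nTreg KO, against 197, 180.05 and 167 in nTreg WT (edgeR, log2 fold change 0.50, SE 0.11, adjusted p = 0.035). This call ended in 5 of 6 fits that left out an nTreg library (adjusted p of up to 0.19), with RLE size factors (0.055) and without the 3 libraries with Xist reads (0.26). The median log2 fold change of the TOP mRNAs was 0.22 in nTreg (13 of 16 above 0) and 0.20 in iTreg (14 of 16). Of all tested genes 51.7% were above 0 in nTreg and 47% in iTreg. At an unadjusted p under 0.05 (edgeR), 6 TOP mRNAs were higher in nTreg (37.5%, against 8.6%) and 3 in iTreg (18.8%, against 3.83%). The KO libraries lay above the WT libraries for 5 in nTreg (31.2%, against 15.7%) and 7 in iTreg (43.8%, against 4.68%). None was lower by either measure. None of the 104 biogenesis factors passed in nTreg (87 above 0, median 0.15) or in iTreg (98 above 0, median 0.14), and neither did any of 15 RNA polymerase I genes (11 above 0 in nTreg, median 0.036; 13 in iTreg, median 0.13) or of 10 regulators (5 above 0 in nTreg, median −0.0043; 6 in iTreg, median 0.057). The largest value of the regulators in nTreg was 1.86, for Eif4ebp1. At an unadjusted p under 0.05 (edgeR), 2 regulators were higher in nTreg (20%, against 8.6%) and none lower. The nTreg KO libraries lay above the WT libraries for 3 regulators (30%, against 15.7%) and below for 2 (20%, against 14.1%). In iTreg neither measure held for any regulator. At an unadjusted p under 0.05 there were 12 biogenesis factors higher in nTreg (11.5%, against 8.6% of all tested genes higher) and 6 in iTreg (5.77%, against 3.83%). These shares were near the background, and none was lower, against 4.78% and 3.73%. In nTreg the KO libraries lay above the WT libraries for 38 of the 104 (36.5%, against 15.7%). They lay below for 2 (1.92%, against 14.1%). In iTreg they lay above for 2 (1.92%, against 4.68%) and below for 0 (against 4.95%).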

How the data were processed

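RNA-seq libraries of 12 samples (3 per group) were analysed from the raw counts per gene symbol that the authors deposited. Per the submitters' processing notes, cutadapt 1.13, STAR, HTSeq 0.6.1p1, DESeq2 and the build mm10 were used; their roles, the annotation, strand use and the handling of reads with several matches are not given in the sources used here. The test was edgeR's robust quasi-likelihood test (edgeR 4.0.16 in R 4.3.3) on TMM-normalised counts of all 12 libraries with a mean per group (8 residual degrees of freedom), after its filter with a minimum count of 10 and total of 15 (12038 genes). P-values were adjusted by the Benjamini-Hochberg method over them, and 0.05 was the threshold. CPM are TMM-normalised, except for summed markers, Ikzf2, Prdm1, Igj, Sdc1, Klrb1c, Xist and Ddx3y, which use raw totals.

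The members and lists were chosen with earlier results of these data known. Named are, per comparison and subunit, up to 5 genes of smallest p that passed in each direction, otherwise the 3 of smallest p, and fixed members with known paralogues or roles. Some genes that the rule names are not reported here. Others were chosen after their values were seen.

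Replicate numbers were checked as pairs by correlating deviations from group means. Pearson's r was 0.501 to 0.621 in nTreg and 0.326 to 0.652 in iTreg between KO and WT libraries that share a number, but −0.068 to 0.097 between nTreg and iTreg libraries. The number therefore entered as a block within a cell type (4 residual degrees of freedom). Other alternatives were RLE, TMM without members, filters, DESeq2 1.42.0, the compared libraries alone and leaving out each library; fits without both nTreg libraries numbered 2 and without the 3 libraries with Xist reads were added after seeing the data. No library was a copy of another. The fit was tested on simulated data: 1.5, 2 and 4-fold changes were recovered for 20.9%, 59.7% and 77.3% of genes in nTreg KO against WT and 17.9%, 58.2% and 84.8% in iTreg. Gene structures are from GENCODE M21 (84 members matched, 2 by a synonym) and promoters from RefSeq. Mitochondrially encoded mRNAs were not analysed here.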

Additional observations from a re-analysis of the deposited data

How the results depend on the processing

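Counts of members past the threshold stayed within 1.5 times the main count in 150 of 160 cases. These include fits of KO against WT, and of the difference in KO effect, where no member passed in either the main or the alternative fit. Such cases do not show that a result is stable. No median moved beyond the spread between libraries (SD 0.163 for large and 0.208 for small subunit genes). The exceptions for nTreg KO against WT, where no member passed, were 1 large and 3 small subunit genes with the compared libraries only, 8 and 7 with the replicate block, and 1 small subunit gene (Rps7) with DESeq2. With single libraries left out, 0 to 1 large subunit genes passed (Rpl10, without nTreg WT replicate 1, adjusted p = 0.044, edgeR) and no small subunit gene. For iTreg KO against WT 1 large subunit gene passed with the block. The block changed no other count of members by over 1.5 times.

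For iTreg against nTreg, leaving out single libraries gave 23 to 29 large and 15 to 19 small subunit genes in WT (30 and 20 with all) and 21 to 28 and 12 to 18 in KO libraries (27 and 17 with all). Chosen after seeing the data, the fit without both nTreg libraries numbered 2 gave 11 small subunit genes in KO, and that without the 3 libraries with Xist reads gave 19 large and 13 small in WT. The causes were not tested; these fits hold fewer libraries.

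Of the named genes' values, 1530 stayed on their side of the threshold, 72 lost and 20 gained a call, and 7 changed sign, none of them called. With single libraries left out, values ran for Rpl11 in KO libraries between −0.29 (without iTreg KO replicate 2) and 0.048 (without nTreg KO replicate 3), for Rps4y2 in KO libraries between −0.55 and 0.12 (without iTreg KO replicates 1 and 3; 0.060 without replicate 2), for Rps27a in WT libraries between −0.017 and 0.23 (without nTreg WT replicates 3 and 1), and for Rps6 in WT libraries between −0.0046 and 0.16 (without iTreg WT replicates 3 and 1). Without the Xist libraries Rpl11 was at 0.047 in KO and Rps27a at −0.11 in WT libraries.

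Depth limits the members with few reads; the lowest of those tested, Rpl30, had 81 reads over the 12 libraries.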
